A study of Mus musculus with 6 samples.

Results

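Integrins are the transmembrane receptors by which cells hold on to matrix and to each other, and focal adhesion linkers are the cytoplasmic proteins that tie their tails to actin. The genes described here are 35 such members (17 integrin alpha subunits, 8 integrin beta subunits and 10 linkers), chosen by symbol among the 41799 rows of a gene count table from liver sinusoidal endothelial cells (SECs). SECs line the fenestrated capillaries of the liver and, unlike most vessels, rest on a sparse matrix, which thickens in fibrosis. The members were sorted into classes by what each gene is known for, because an isolate of SECs can carry leukocytes, platelets and stellate cells, each with integrins of its own.

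Each functional integrin pairs 1 alpha with 1 beta subunit. The beta-1 subunit (Itgb1) pairs with many alpha subunits, among them the collagen receptors alpha-1 and alpha-2, the laminin receptors alpha-3 and alpha-6, the fibronectin receptor alpha-5 and alpha-9, which binds tenascin-C and a splice form of fibronectin. The beta-2 subunit (Itgb2) and its partners alpha-L, alpha-M and alpha-X belong to leukocytes, and alpha-IIb (Itga2b) with beta-3 is the fibrinogen receptor of platelets. Talins and kindlins (the Fermt genes) bind the beta tail and switch the receptor on, and vinculin, paxillin and the complex of integrin-linked kinase (ILK), PINCH (Lims1) and parvin build the link to actin.

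The SECs came from 3 libraries labelled RBPj knock-out (KO) and 3 labelled control, all from male mice aged 12 to 14 weeks. RBPj is the DNA-binding protein through which Notch receptors act on transcription, and the labels describe its conditional deletion in endothelium by tamoxifen (2 mg per 20 g of body weight daily for 7 days from an age of 4 to 6 weeks). The protocol text is the same for all 6 samples, and all mice received carbon tetrachloride (CCl4, 0.6 μl per g, 15% in olive oil) 2 times a week for 6 weeks to induce fibrosis. The strain label is C57BL/6 for the controls and KO replicate 1, C57BL/7 for KO replicate 2 and C57BL/8 for KO replicate 3. The last digit rises with the KO replicate number, and whether these labels name different strains could not be checked. The driver of the deleting recombinase, the genotype of the controls and the way SECs were purified are not given in the labels. Nothing in the labels says that the replicates were separate mice, so a p-value here speaks of the spread among these samples only, and that spread may be technical.

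Total counts were 10503026 to 12326770 in the KO libraries and 10372195 to 11268228 in the control libraries. Values below are CPM, read counts divided by a library size that TMM normalisation had adjusted. Rbpj itself, counted over the whole gene rather than the deleted part, was at 11.6, 8.10 and 11.9 CPM in KO replicates 1 to 3, against 18.6, 14.5 and 16.4 CPM in the controls (adjusted p = 0.187, edgeR's quasi-likelihood test). The defining SEC markers (Stab1, Stab2, Lyve1 and 5 others) summed to 13711 to 16962 CPM in KO and 9388 to 14017 CPM in control libraries. Markers of other cells were present and uneven. Neutrophil markers summed to 720 to 4960 CPM in KO and 397 to 24085 CPM in control libraries, with the highest value of each group in replicate 1. Macrophage markers summed to 789 to 3111 CPM in KO and 2576 to 4924 CPM in control libraries, and stellate cell markers to 827 to 2015 CPM in KO and 2776 to 7326 CPM in control libraries. Of the 84 tested genes in the 14 marker lists, 0 passed an adjusted p of 0.05. In bulk samples such as these, fewer cells of a type and less RNA per cell cannot be told apart.

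The comparison asked which integrins and linkers differed between RBPj-deficient and control SECs of fibrotic liver. The fibronectin receptor gene Itga5 and the laminin receptor gene Itga6 were higher in every KO library than in any control library, whereas the genes of the matrix receptors alpha-9 and alpha-1 and of their partner beta-1 were lower in every KO library. The platelet gene Itga2b had the largest ratio of all members, 4.43-fold higher in KO. All 6 tested leukocyte integrins and the blood-cell kindlin gene Fermt3 had negative log2 fold changes. None of these differences passed the test fitted over the whole table.

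An adjusted p of 0.05 (edgeR's quasi-likelihood test, Benjamini-Hochberg over 15404 genes) was passed by 0 of the 34 tested members, beside 0.195% of all tested genes (0.104% higher and 0.0909% lower in KO). At an unadjusted p of 0.05, 11 members passed (3 higher, 8 lower), beside 17.5% of all tested genes (9.39% higher and 8.13% lower). DESeq2 called 7 members (3 higher, 4 lower), beside 6.77% of the genes it tested (3.86% higher and 2.91% lower), and limma-voom with sample quality weights called 3 (1 higher, 2 lower), beside 3.17% (1.89% higher and 1.29% lower). The values of the KO and control groups did not overlap for 15 of 34 members, 4 higher and 11 lower in KO, beside 24.9% of all tested genes (13.2% higher and 11.7% lower). The median log2 fold change was -0.34 over the tested members and -0.03 over all tested genes. The 35th member, Itgae, which encodes the alpha-E subunit of lymphocytes in epithelia, is listed at 0 in all 6 libraries. Its row lies on a contig outside the chromosomes on which 30 of 31 rows are at 0, and the length given to it is 2.00 times the exons that GENCODE places at chromosome 11, positions 73090583 to 73147446, so the 0 says nothing of its expression.

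**Figure D1:**
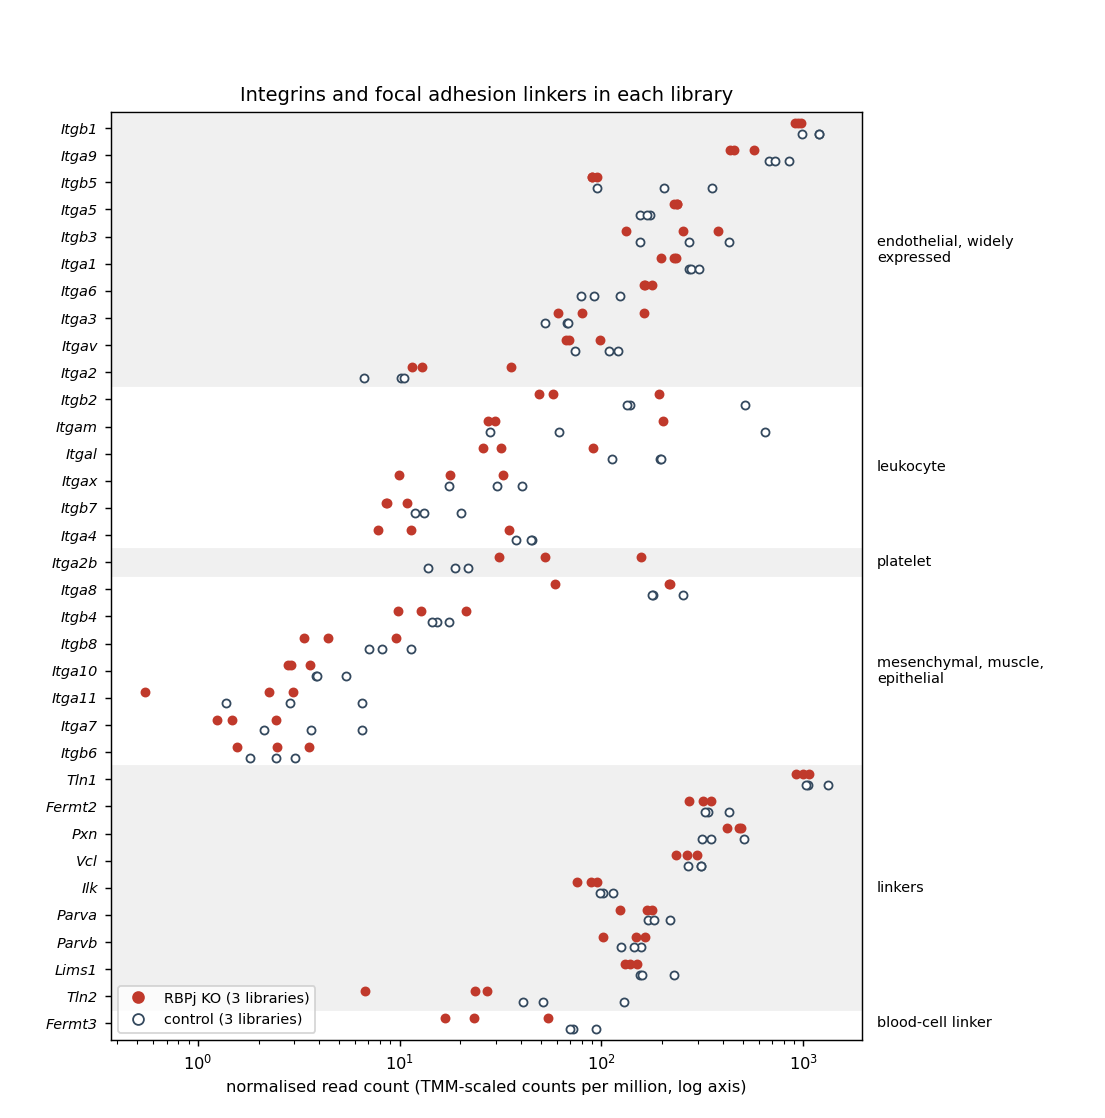
Normalised read count (TMM-scaled, CPM, log axis) of the 34 tested members, by class. Filled points are the 3 RBPj KO libraries and open points the 3 control libraries; Itga5 and Itga6 lie fully to the right of their controls, Itga9 and Fermt3 fully to the left.

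Promoter windows were taken for 25 of the 35 members from RefSeq (GRCm38.p6, 30 windows), using the 250 bases before each start site. GTGGGAA, the sequence that RBPj prefers, was searched on both strands and was found in 0 of the 30 windows, beside 5.42% of all 32851 windows. Its shorter core TGGGAA, which lies inside the first motif and was looked at afterwards, was found in 2 member windows (Itga2b and Vcl), beside 21.6% of all windows. A missing match says only that these letters are not in the window. The windows are shown for the member with the largest ratio (Itga2b), for that with the smallest adjusted p (Itga5) and for the blood-cell linker (Fermt3), with a match to the core in capitals, here read on the opposite strand.
Itga2b, chr11:102469884-102470133, minus strand: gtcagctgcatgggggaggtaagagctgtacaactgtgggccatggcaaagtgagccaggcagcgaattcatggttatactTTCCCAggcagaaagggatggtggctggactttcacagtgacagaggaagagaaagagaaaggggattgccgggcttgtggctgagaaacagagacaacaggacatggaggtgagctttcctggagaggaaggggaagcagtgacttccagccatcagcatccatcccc
Itga5, chr15:103366792-103367041, minus strand: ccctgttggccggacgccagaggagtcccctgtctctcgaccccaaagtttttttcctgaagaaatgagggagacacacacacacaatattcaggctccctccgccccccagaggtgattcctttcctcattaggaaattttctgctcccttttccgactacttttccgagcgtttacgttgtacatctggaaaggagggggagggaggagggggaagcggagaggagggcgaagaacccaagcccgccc
Fermt3, chr19:7019470-7019719, minus strand: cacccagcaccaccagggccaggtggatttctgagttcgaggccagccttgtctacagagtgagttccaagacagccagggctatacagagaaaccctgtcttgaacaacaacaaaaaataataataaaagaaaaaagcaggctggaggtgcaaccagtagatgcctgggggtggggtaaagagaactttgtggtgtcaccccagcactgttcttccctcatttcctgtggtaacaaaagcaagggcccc
The match in Itga2b starts 169 bases before the start site. The windows of the blood-cell genes Itga2b and Fermt3 hold 2 and 1 CpG sites, and that of Itga5 holds 11. Part of the Itga2b window is also annotated by GENCODE as an exon of a non-coding transcript of the gene.

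Among integrins of endothelium, which many other cells also express, 10 of 10 genes were tested. The groups did not overlap for 3 that were higher (Itga5, Itga6, Itga2) and 3 that were lower in KO (Itga9, Itga1, Itgb1). Over all tested genes, 13.2% did not overlap and were higher and 11.7% did not overlap and were lower. The class median log2 fold change was -0.21. Itga5 (chromosome 15, 103344286 to 103366748, mm10) encodes the alpha-5 subunit, which with beta-1 binds the RGD sequence of fibronectin and is abundant in growing vessels. It was at 236, 238 and 229 CPM in KO libraries, against 155, 175 and 167 CPM in control libraries. The lowest KO library exceeded the highest control library, and the spread within each group was small. The log2 fold change was 0.50 ± 0.10 (SE, n = 3 each), a ratio of 1.41, with an adjusted p of 0.0996 in edgeR's test. Over the alternatives run, its adjusted p ranged from 0.000195 in DESeq2 to 0.323 and its log2 fold change from 0.45 to 0.56. Of the 8 markers of all endothelium, 6 had positive log2 fold changes (median 0.34), and they summed to 9720.4 to 11811 CPM in KO and 7922 to 9709.8 CPM in control libraries. The groups did not overlap for the junction genes Cdh5 and Pecam1 and the receptor gene Tie1 (log2 fold changes 0.50, 0.30 and 0.60). Of the 8 SEC markers, 5 had positive and 3 had negative log2 fold changes (median 0.24). The groups did not overlap for Stab2 (0.86) and Mrc1 (0.33), which were higher, and Clec4g (-1.03), which was lower in KO. Lyve1 had a negative value (-0.73) and overlapped. The part of these markers in the values of Itga5 and Itga6 was not tested.

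Itga6 (chromosome 2, 71786885 to 71858427) encodes alpha-6, which binds the laminins of basement membranes. It was at 178, 162 and 163 CPM in KO and at 91.9, 123 and 79.0 CPM in control libraries. The groups did not overlap, with control replicate 2 nearest to the KO libraries (log2 fold change 0.77 ± 0.18, adjusted p = 0.127 in edgeR). Its adjusted p over the alternatives ranged from 0.00693 in DESeq2 to 0.352. The gene of the related laminin receptor alpha-3, Itga3, was at 162, 79.9 and 60.7 CPM in KO and at 52.5, 67.3 and 68.6 CPM in control libraries. KO replicate 1 stood far above the rest, KO replicate 2 lay above every control, and KO replicate 3 lay among the controls. The 4 mesothelium markers summed to 103, 56.9 and 61.7 CPM in KO and 64.6, 41.9 and 37.3 CPM in control libraries. For 3 of them the groups did not overlap, all higher in KO, beside 13.2% of all tested genes. The part of mesothelium in the values of Itga3 and Itga6 was not tested.

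Itga9 (chromosome 9, 118606709 to 118901003) encodes alpha-9, a receptor known from lymphatic endothelium. It was at 451, 567 and 435 CPM in KO libraries, against 680, 849 and 724 CPM in control libraries. All 3 KO libraries lay below all 3 controls (log2 fold change -0.63 ± 0.16, adjusted p = 0.149 in edgeR, and 0.0101 to 0.414 over the alternatives). Per length, it was the most abundant alpha subunit in every library but control replicate 1, where Itgam exceeded it. The ratio of Itga5 to Itga9, each per length, was 0.853, 0.683 and 0.856 in KO libraries and 0.371, 0.336 and 0.376 in control libraries, a pair of genes set side by side after their values were seen.

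Itga1 and Itga2 encode the paired collagen receptors alpha-1 and alpha-2 and lie next to each other on chromosome 13 (114958079 to 115101964 and 114835912 to 114932041). Itga1, the form bound to basement-membrane collagen and typical of SECs, was at 234, 229 and 198 CPM in KO and 273, 277 and 304 CPM in control libraries (log2 fold change -0.37 ± 0.11, adjusted p = 0.191 in edgeR). Itga2 was far less abundant, at 35.6, 12.9 and 11.5 CPM in KO and 10.1, 10.5 and 6.64 CPM in control libraries. The neighbours thus pointed in opposite directions, but KO replicate 1 held 59.4% of the summed KO value of Itga2, and its adjusted p was 0.308. Reads of Itga1 share a strand and a locus with Pelo, which lies within it and had 3913 counts beside 16969 for Itga1.

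Itgb1, the common beta subunit, was the most abundant member per length. It was at 909.9, 970.4 and 945 CPM in KO and at 983, 1190.1 and 1192 CPM in control libraries. KO replicate 2 came close to control replicate 1, so the groups only just separated (log2 fold change -0.25 ± 0.13, adjusted p = 0.377 in edgeR). Of the 10 stellate cell markers, 10 had negative log2 fold changes (median -1.57). For 9 of them the groups did not overlap, all lower in KO, beside 11.7% of all tested genes. The part of stellate cells in the lower values of Itga9, Itga1 and Itgb1 was not tested.

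**Figure D2:**
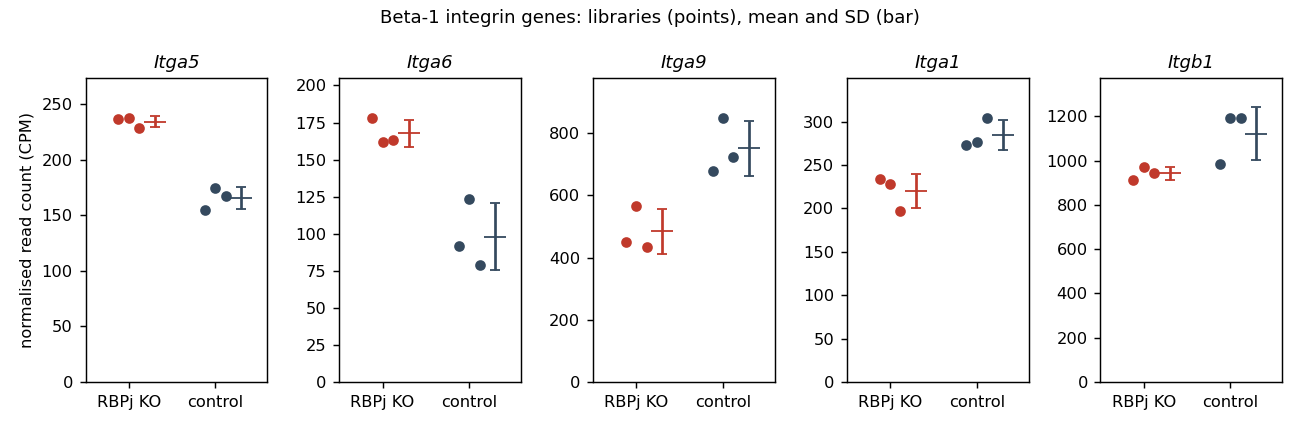
Normalised read count (CPM, axes from 0) of 5 beta-1 integrin genes. Points are libraries, RBPj KO left and control right, and bars give the mean and SD of 3; Itga5 and Itga6 are higher in KO, while Itga9, Itga1 and, by a narrow gap, Itgb1 are lower.

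The alpha-V group, which binds vitronectin and frees latent TGF-beta, overlapped between groups. Itgav was at 98.5, 68.9 and 66.4 CPM in KO and at 74.2, 109 and 121 CPM in control libraries (adjusted p = 0.443 in edgeR). Itgb3 ranged widely within both groups, at 378, 254 and 132 CPM in KO and 428, 272 and 155 CPM in control libraries. Itgb5 was nearly constant in KO, at 89.5, 95.2 and 89.6 CPM, and was at 95.0, 203 and 354 CPM in control libraries. In control replicates 1 to 3, stellate cell markers summed to 2776, 2865 and 7326 CPM and macrophage markers to 2576, 3412 and 4924 CPM. In KO replicates 1 to 3, these sums were 827, 2015 and 1694 CPM and 3111, 789 and 1267 CPM. The part of either cell type in the Itgb5 values was not tested.

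Among leukocyte integrins, 6 of 7 genes were tested, all with negative log2 fold changes (class median -1.31), beside 8290 negative values among all 15404 tested genes. The groups did not overlap for 3 of the 6, all lower in KO, beside 11.7% of all tested genes. Itgb2, the beta subunit of the leukocyte integrins, was the most abundant of the class per length, at 193, 49.1 and 57.3 CPM in KO libraries, against 512, 138 and 134 CPM in control libraries. Replicate 1 was the highest library of each group, and KO replicate 1 lay above control replicates 2 and 3 (log2 fold change -1.39 ± 0.78, adjusted p = 0.406 in edgeR). The pan-leukocyte markers (Ptprc, Cd53, Coro1a and Was; Laptm5 is listed at 0) were likewise highest in replicate 1 of each group, with sums of 427, 94.0 and 116 CPM in KO and 1144, 258 and 263 CPM in control libraries. The part of these cells in the Itgb2 values was not tested. The overlapping gene Fam207a on the other strand had 2578 counts beside 11317 for Itgb2.

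The partners of Itgb2 lie close together on chromosome 7 and differed in pattern. Itgal, the alpha-L subunit of LFA-1 (127296230 to 127335138), was at 91.1, 26.0 and 31.8 CPM in KO and 196, 113 and 198 CPM in control libraries, with no overlap (log2 fold change -1.77 ± 0.54, adjusted p = 0.198 in edgeR, and 0.0112 to 0.451 over the alternatives). Itgam, the alpha-M subunit of neutrophils and macrophages (128062640 to 128128160), was at 202, 27.4 and 29.7 CPM in KO and 649, 61.7 and 28.0 CPM in control libraries. Replicate 1 was by far the highest library of each group, as for the neutrophil markers, which summed to 4960, 892 and 720 CPM in KO and 24085, 397 and 441 CPM in control libraries. Without control replicate 1, the log2 fold change of Itgam was 0.94 instead of -1.51. Itgax, the alpha-X subunit of dendritic cells and macrophages (128129529 to 128150657), was at 32.6, 9.90 and 17.7 CPM in KO and 17.6, 40.3 and 30.4 CPM in control libraries, which overlapped.

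The remaining leukocyte subunits were at low levels. Itga4, the alpha-4 subunit that binds VCAM-1 and fibronectin, was at 34.9, 7.78 and 11.4 CPM in KO and 37.5, 45.2 and 44.8 CPM in control libraries. KO replicates 2 and 3 were far below every control, and KO replicate 1 was just below the lowest (adjusted p = 0.319 in edgeR). Without KO replicate 1 its log2 fold change was -2.14 with an adjusted p of 0.0497 (0.261% of all genes tested in that fit were called, 0.146% higher and 0.114% lower), against -1.24 with all libraries, and over all alternatives its adjusted p ranged from 0.0167 to 0.6. Itgb7, a partner of alpha-4 and alpha-E, was at 10.8, 8.68 and 8.52 CPM in KO and 11.9, 13.3 and 20.2 CPM in control libraries (adjusted p = 0.222).

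Fermt3 encodes kindlin-3, which activates integrins in blood cells, and is grouped here with the genes of leukocytes. It was at 54.2, 16.8 and 23.2 CPM in KO and 93.5, 72.2 and 69.7 CPM in control libraries, with no overlap (log2 fold change -1.32 ± 0.45, adjusted p = 0.227 in edgeR, and 0.0175 to 0.498 over the alternatives). When both replicate-1 libraries were left out, a choice made after the data were seen, Itga4, Itgal, Itgb2, Fermt3 and Itgav were lower in KO with adjusted p from 0.0167 to 0.0416. In that fit 4.56% of all tested genes were called (1.72% higher and 2.84% lower). The summed macrophage markers of the libraries that remained were 789 and 1267 CPM in KO and 3412 and 4924 CPM in control libraries. Neutrophil markers went the other way there, with sums of 892 and 720 CPM in KO and 397 and 441 CPM in control libraries. The part of these cells in the values of the called genes was not tested.

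**Figure D3:**
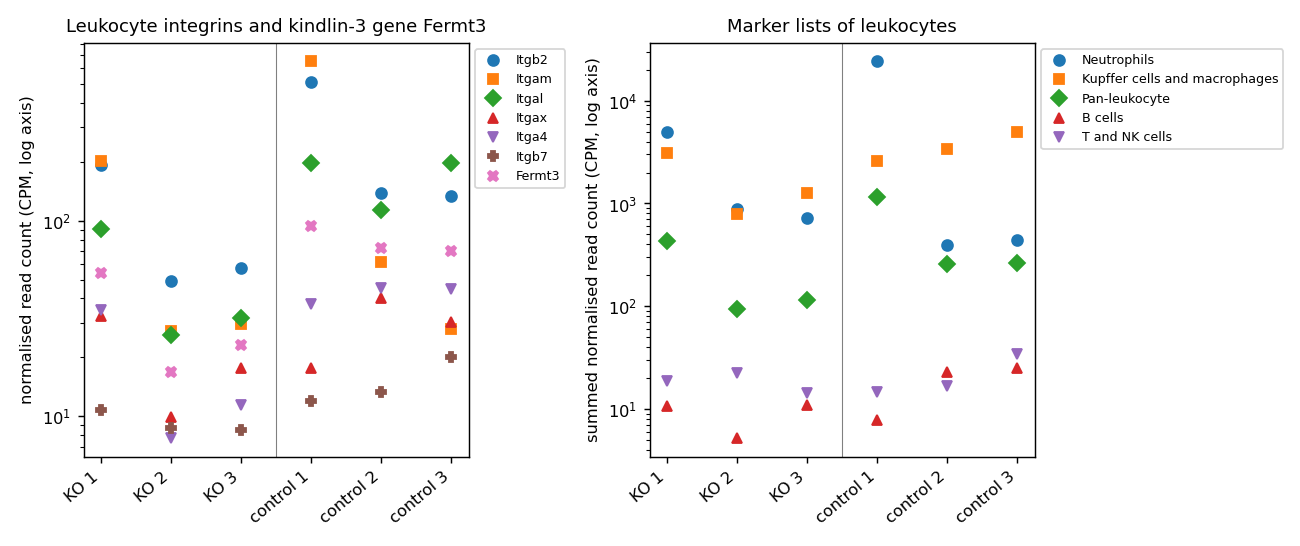
Left, normalised read count (CPM, log axis) of 6 leukocyte integrin genes and Fermt3 in each library, KO left of control. Right, summed CPM of 5 leukocyte marker lists; both panels show KO replicate 1 and control replicate 1 as the libraries highest in Itgb2, Itgam and the neutrophil and pan-leukocyte sums.

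The platelet integrin gene Itga2b (chromosome 11, 102453297 to 102469883) encodes alpha-IIb, or CD41, which marks platelets, megakaryocytes and early blood progenitors. It had 1733, 642 and 400 counts in KO libraries, against 176, 164 and 229 counts in control libraries. Normalised, this was 157, 52.5 and 31.0 CPM in KO and 18.8, 13.8 and 21.7 CPM in control libraries, so that all KO libraries lay above all controls but KO replicate 1 alone carried 65.3% of the summed KO value. The log2 fold change was 2.15 ± 0.63 (adjusted p = 0.185 in edgeR, and 0.00530 to 0.386 over the alternatives). Without KO replicate 1 it was 1.22, with an adjusted p of 0.132.

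Its partner Itgb3 did not separate the groups, and per length the ratio of Itga2b to Itgb3 was 0.738, 0.367 and 0.415 in KO and 0.0778, 0.0902 and 0.248 in control libraries. The 8 platelet and megakaryocyte markers summed to 1.73, 1.31 and 0.465 CPM in KO and 0.960, 1.27 and 0.949 CPM in control libraries, and 0 of them passed the filter on low counts. Gp9, a subunit of the platelet von Willebrand factor receptor, had 5, 11 and 2 counts in KO and 6, 7 and 6 counts in control libraries. Tubb1, the tubulin of platelets, had at most 12 counts in a library. Pf4, Ppbp and Gp1bb are listed at 0, which cannot be read as absence. The length given to Ppbp is 1.99 times and that of Gp1bb 2.00 times their GENCODE exons, as was seen for Itgae, and Pf4 lies on a contig outside the chromosomes. The lengths given to the counted markers Gp9 and Tubb1 are 2.33 and 1.43 times their GENCODE exons, so their low counts carry the same doubt, and the part of platelets in the Itga2b values was not tested.

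**Figure D4:**
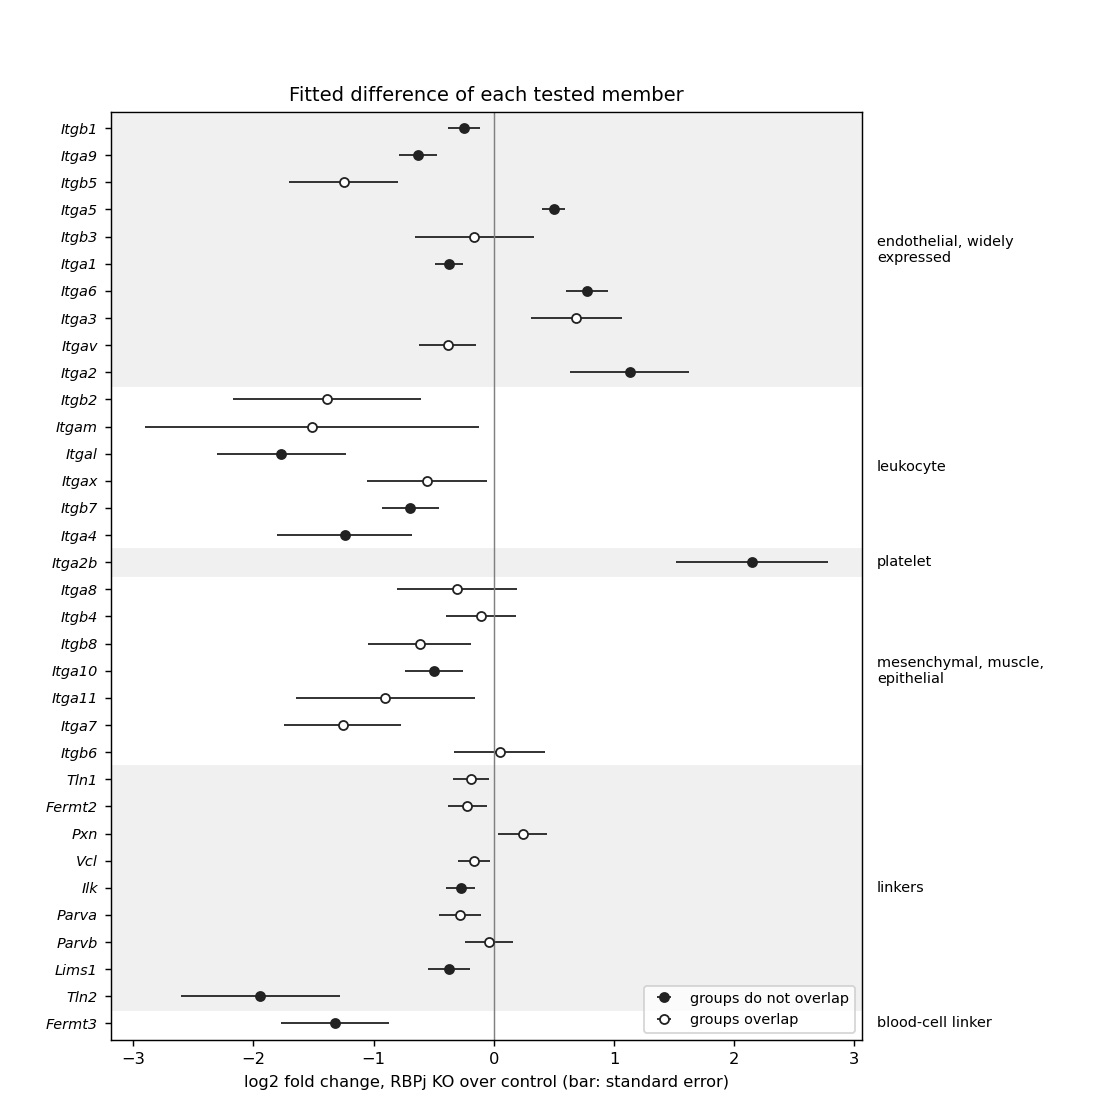
Log2 fold change of RBPj KO over control for the 34 tested members, by class, with its standard error (n = 3 each). Filled points mark the 15 members whose groups do not overlap; Itga2b lies furthest to the right at 2.15 and Tln2 furthest to the left at -1.94.

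Integrins known mainly from mesenchymal, muscle or epithelial cells were low apart from Itga8. Itga8, which stellate and mesangial cells express, was at 58.8, 216 and 219 CPM in KO and 179.8, 178 and 255 CPM in control libraries. KO replicate 1 stood apart. It was also the library with the lowest stellate cell marker sum (827 CPM, against 1694 to 7326 CPM in the others). Without KO replicate 1, the log2 fold change was 0.11 instead of -0.31. In Itga8, KO replicates 2 and 3 lay above control replicates 1 and 2. In the stellate cell marker sum they lay below them, at 2015 and 1694 CPM against 2776 and 2865 CPM. The part of stellate cells in the Itga8 values was not tested. Of the other 6 genes of this class, the cartilage collagen receptor gene Itga10 was the one whose groups did not overlap, at 2.91, 3.60 and 2.79 CPM in KO and 3.84, 3.88 and 5.41 CPM in control libraries, or 32 to 44 and 36 to 57 counts (adjusted p = 0.343 in edgeR). Itga7, Itga11, Itgb4, Itgb6 and Itgb8 were between 0.545 and 21.4 CPM in KO and between 1.39 and 17.6 CPM in control libraries, and they overlapped. Itgb4 and Itga7 overlap Galk1 and Mettl7b, which had more counts (2503 and 227) than they did (1022 and 193), so their levels are uncertain.

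Apart from Tln2, the linkers of endothelium and other tissues had log2 fold changes from -0.37 (Lims1) to 0.24 (Pxn). The groups did not overlap for 3 linkers, all lower in KO (Tln2, Ilk and Lims1), beside 11.7% of all tested genes. Talin-1, encoded by Tln1 and the main activator of integrins in endothelium, was the most abundant linker per length, at 998, 1067 and 923 CPM in KO and 1322, 1059 and 1027 CPM in control libraries. The groups overlapped, and its log2 fold change was -0.19 ± 0.15 (adjusted p = 0.552 in edgeR). The kindlin-2 gene Fermt2, the paxillin gene Pxn, the vinculin gene Vcl and the parvin genes Parva and Parvb also overlapped, with log2 fold changes from -0.28 to 0.24. Of 9 linkers, 1 had a positive value (Pxn) and 8 had negative values, beside 8290 negative values among all 15404 tested genes. The class median was -0.22.

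Ilk and Lims1, which encode the scaffold kinase and its LIM partner, were lower in every KO library. Ilk was at 75.6, 95.1 and 89.1 CPM in KO and 102, 98.5 and 114 CPM in control libraries (log2 fold change -0.28 ± 0.12, adjusted p = 0.306 in edgeR). Lims1 was at 131, 138 and 149 CPM in KO and 228, 155 and 159 CPM in control libraries, where control replicate 1 was the highest (adjusted p = 0.327). The length given to Lims1 is 1.81 times its GENCODE exons, so the level of Lims1 is uncertain. A pseudogene of Ilk, Gm6263, had 1699 counts beside 6469 for Ilk, and Rrp8 and Taf10 overlap it on the other strand, so its level is uncertain. Tln2, the talin of muscle and brain, had the largest negative log2 fold change of all members (-1.94 ± 0.66, adjusted p = 0.228 in edgeR, and 0.0229 to 0.474 over the alternatives). It was at 6.73, 27.0 and 23.7 CPM in KO and 40.8, 51.2 and 129 CPM in control libraries. Its lowest and highest libraries, KO replicate 1 and control replicate 3, were also those with the lowest and highest stellate cell marker sums (827 and 7326 CPM), and the part of these cells in it was not tested.

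Levels of different genes can be compared only per length, as RPKM scaled by TMM. In the mean over all 6 libraries Itgb1 led, with 206 ± 6.66 RPKM in KO and 246 ± 26.3 RPKM in control libraries (SD, n = 3 each), followed by Tln1 with 112 ± 8.13 and 128 ± 18.2 RPKM, Fermt2 with 93.6 ± 11.9 and 109 ± 17.0 RPKM, and Itga9 with 68.1 ± 10.1 and 106 ± 12.3 RPKM. Pxn, at 83.5 ± 7.17 RPKM in KO and 70.7 ± 18.8 RPKM in control libraries, stood above Itga9 in the KO mean. The order of Tln1, Fermt2 and Itga9 in the controls was within the spread. The alpha subunits able to join beta-1 summed to 249 ± 15.2 RPKM in KO and 273 ± 22.8 RPKM in control libraries, close to the level of Itgb1 itself. Itga5 made up 15.1%, 18.8% and 20.4% of all alpha subunit level in KO, against 8.86%, 12.0% and 11.4% in control libraries, and Itga6 8.05%, 9.03% and 10.3% against 3.71%, 5.95% and 3.79%. Neither share overlapped between groups. Itga9 made up 17.8%, 27.6% and 23.8% in KO and 23.9%, 35.7% and 30.2% in control libraries, which overlapped. Itgam reached 26.9% in control replicate 1 and 9.35% in KO replicate 1 and was at most 3.06% elsewhere.

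**Figure D5:**
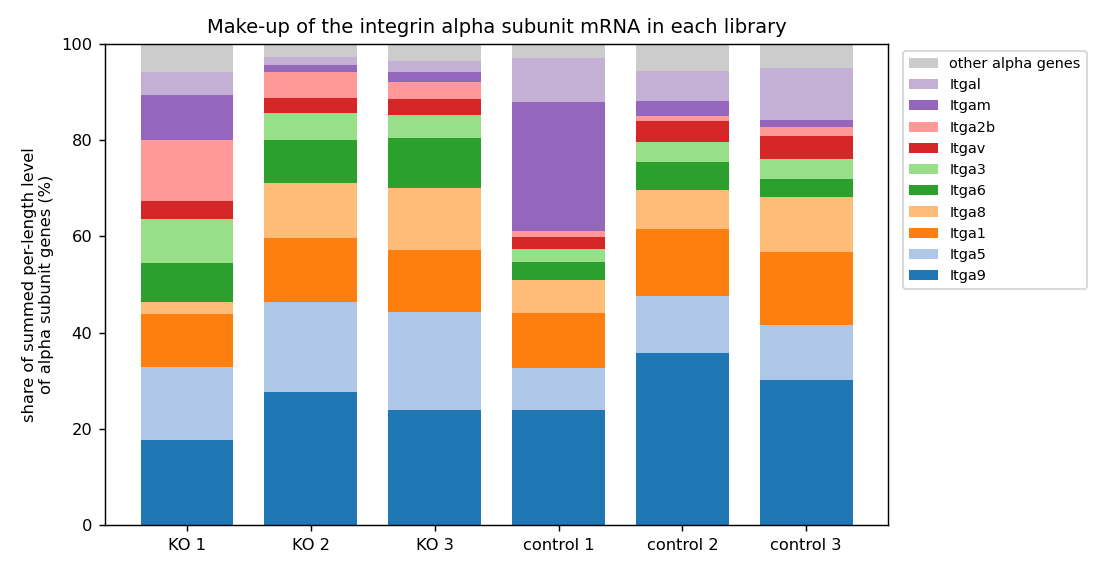
Share of each gene in the summed per-length level of all integrin alpha subunit genes (%), 1 bar per library, KO left of control. Itga5 and Itga6 take larger shares in each KO library, Itga9 is the largest share except in control replicate 1, where Itgam takes 26.9%, and Itga2b takes 12.8% in KO replicate 1.

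Other genes of the adhesion machinery were read from 5 lists. Of 91 tested genes, 0 passed an adjusted p of 0.05 in edgeR, and 21 had an unadjusted p under 0.05 (10 higher, 11 lower), beside 17.5% of all tested genes. DESeq2 called 7 (3 higher, 4 lower), beside 6.77% of the genes it tested. The groups did not overlap for 12 that were higher and 11 that were lower in KO, beside 13.2% and 11.7% of all tested genes. The median log2 fold change of these genes was -0.14. Among ligands (30 tested), the smallest adjusted p was that of Icam2, the constitutive endothelial ligand of alpha-L beta-2, at 206, 215 and 209 CPM in KO and 135, 146 and 133 CPM in control libraries (log2 fold change 0.61 ± 0.09, adjusted p = 0.0638 in edgeR), and both DESeq2 and limma-voom called it. Jam3, a junction protein that binds alpha-M beta-2, was second (log2 fold change 0.87 ± 0.24, adjusted p = 0.170 in edgeR and 0.0414 in DESeq2).

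Among genes that switch integrins on or off (17 tested), Rasip1, an effector of Rap1 in endothelium that is needed for vessel lumens, was at 709, 767 and 661 CPM in KO and 428, 437 and 317 CPM in control libraries, with no overlap (log2 fold change 0.86 ± 0.16, adjusted p = 0.0996 in edgeR, 0.000178 in DESeq2 and 0.0427 in limma-voom). The tetraspanin gene Cd9, whose protein associates with beta-1 integrins, was at 162, 127 and 140.1 CPM in KO and 209, 206 and 184 CPM in control libraries (log2 fold change -0.48 ± 0.13, adjusted p = 0.155 in edgeR and 0.0299 in DESeq2). Among signalling adaptors (20 tested), Csk, the kinase that restrains Src, had a log2 fold change of -0.49 ± 0.11 (adjusted p = 0.122 in edgeR and 0.0120 in DESeq2) and Dock1, a Rac exchange factor downstream of p130Cas, one of 0.41 ± 0.13 (adjusted p = 0.212). Of 21 structural genes 18 had negative values, with a median of -0.37, beside 8290 negative values among all 15404 tested genes. The smallest p there was that of Tns1, a tensin of fibrillar adhesions, at 567, 711 and 516 CPM in KO and 769.7, 1034 and 1011 CPM in control libraries (log2 fold change -0.65 ± 0.19, adjusted p = 0.178 in edgeR and 0.0286 in DESeq2), followed by Enah, an actin elongation factor (-0.76 ± 0.25, adjusted p = 0.218). Among the 3 other integrin genes, Itgb2l, a beta-2-like gene, was at 203 CPM in control replicate 1 and at 29.4 CPM in KO replicate 1, and between 3.04 and 5.66 CPM elsewhere, and Itgbl1 was at most 3.41 CPM.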

How the data were processed

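RNA sequencing of 3 RBPj KO and 3 control SEC libraries was analysed. The submitters' processing notes name bcl2fastq, TopHat2 2.0.13 and mm10; what counted the reads, on which annotation and whether by strand, is not given in the sources used here. Both raw counts per gene (whole numbers) and RPKM values made from them were deposited by the authors. The RPKM equalled count over length over library total within 0.1% for 100% of values and served only for that check. The paper given with the series does not describe these libraries. Groups came from sample titles.

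Counts were tested with edgeR 4.0.16 in R 4.3.3 (TMM, filterByExpr, robust quasi-likelihood fit, two-sided, Benjamini-Hochberg at 0.05 over 15404 genes), and the fit was tested on simulated data. There it called 26 of 100 genes given a log2 fold change of 1 in either direction. It called 93 of 100 genes given a larger change, with 6 false calls. Real differences of the smaller size can therefore be missed. DESeq2 1.42.0, limma-voom (limma 3.58.1) with quality weights, RLE size factors, no filter or a stricter one (10 counts in 3 libraries, average log2 CPM of 1), removal of ribosomal RNA rows, the replicate number as a block, leaving out each library, and TPM for per-length levels were alternatives. The 18S row took 1.33% to 3.72% of KO and 0.864% to 6.62% of control counts. Of 41799 rows, 14709 were at 0 throughout and 0 lacked a name. A floor of 3 counts equals 0.243 to 0.289 CPM and covers counting error only.

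The members, classes, 5 adhesion lists and 14 marker lists were chosen with earlier results of these data known. List genes were matched by symbol, and 2 by synonym (Tns2 as Tenc1, Adgre1 as Emr1). Values per library are given for members whose groups do not overlap and for the most abundant member per length of each class. From each adhesion list the 2 genes with the smallest p are named where none passed the threshold. Other names, Itga3, Itgav, Itgb3, Itgb5, Itgam and Itgax among them, were chosen after their values were seen. Marker lists covered sinusoidal and all endothelium, macrophages, neutrophils, T and NK cells, B cells, dendritic cells, all leukocytes, platelets, stellate cells, fibroblasts, bile duct, hepatocytes and mesothelium. Coordinates are those of the table (mm10, counted from 1). Genes and promoter sequences of the reference are from RefSeq (GRCm38.p6) and GENCODE. One gene of the platelet list is not reported here by name.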

Additional observations from a re-analysis of the deposited data

How the results depend on the processing

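Of the 34 tested members, 28 kept the sign of their log2 fold change in all alternatives run. In edgeR, 16 genes were called higher and 14 lower in KO over all genes. RLE size factors gave 35 and 20, no filter 114 and 62, the stricter filter 47 and 26, limma-voom 291 and 198, DESeq2 544 and 411, and leaving out both replicate-1 libraries (chosen after seeing the data) 269 and 444. Leaving out 1 library gave 0 to 23 higher and 0 to 18 lower. Members called higher were 1 in limma-voom (Itga5) and 3 in DESeq2 (Itga2b, Itga5, Itga6). Members called lower were 2 in limma-voom (Fermt3, Itga4), 4 in DESeq2 (Fermt3, Itga9, Itgal, Tln2), 5 without both replicate-1 libraries (Fermt3, Itga4, Itgal, Itgav, Itgb2) and 0 to 1 when 1 library was left out (Itga4, without KO replicate 1). The cause of these differences was not tested.

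The sign turned for 6 members. Leaving out 1 library gave log2 fold changes of -0.55 to 0.11 for Itga8, -3.09 to 0.94 for Itgam, -0.55 to 0.25 for Itgb3, -0.47 to 0.13 for Itgb4, -0.26 to 0.30 for Itgb6 and -0.18 to 0.15 for Parvb. Without both replicate-1 libraries the values were 0.017 for Itga8, -0.43 for Itgb6 and 0.058 for Parvb, and limma-voom gave -0.16 for Itgb6. Itgb2l ran from -3.60 to 2.00 with 1 library left out, 0.75 without both replicate-1 libraries and 0.23 in limma-voom. With the replicate number as a block, 1 gene was called higher and 2 lower, with 0 members. Same-numbered samples correlated at 0.19, 0.03 and 0.42 in their deviations from the group means. For 2 of 3 numbers the KO library correlated best with its own number. These values do not settle whether the numbers pair the samples. The labels do not say that a number marks a shared mouse, litter or day, so the main fit left the numbers out. Shares of subunits are the same in TPM, and the KO to control ratios of the most abundant members moved by less than their spread. The SE of a member's log2 fold change ran from 0.10 (Itga5) to 1.39 (Itgam), so that differences of a size the first would show were not detectable in the second.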
